A study of Mus musculus with 55 samples.

Results

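Microglia are the resident macrophages of the brain, and 9 genes that mark them were followed here through the dorsal hippocampus of 55 mice: Cx3cr1, P2ry12, Tmem119, Csf1r, C1qa, C1qb, C1qc, Trem2 and Aif1. The set was given by gene name as markers of microglia, and all 9 were among the 55487 Ensembl genes counted and the 16168 genes that passed the filter on low counts. The mice were wild type (WT) or homozygous for a whole-body deletion in Cnih3 (KO), which codes for an auxiliary protein of AMPA receptors, on a C57BL/6J background. WT mice came from WT matings or from Cnih3 heterozygote matings, and KO mice from matings of Cnih3 mutants. Genotype is thus partly mixed with parental breeding. Each genotype was collected as males and as females in metestrus, diestrus, proestrus or estrus, with 1 bulk RNA-seq library per mouse. There were 5 male, 4 metestrus, 6 diestrus, 5 proestrus and 7 estrus WT mice, and 7 male, 5 metestrus, 6 diestrus, 4 proestrus and 6 estrus KO mice. The sources name no treatment, stages were read from vaginal smears, and the mice were 10.86 to 23.71 weeks old. The deletion is present in every cell from conception, so it is not a model of loss in the hippocampus or in microglia alone. Of the 12 diestrus mice, 7 were under 14 weeks (3 WT, 4 KO; here "younger") and 5 were older (3 WT, 2 KO). No KO male and no WT estrus mouse was under 14 weeks. Median ages ran from 12.43 weeks in KO diestrus to 20.29 weeks in WT males, so age is mixed with stage and sex in comparisons of groups.

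Cx3cr1, P2ry12 and Csf1r are receptors through which microglia read their surroundings. Cx3cr1 binds fractalkine (Cx3cl1) from neurons, P2ry12 senses ADP and guides the processes of resting microglia, and Csf1r binds Csf1 and Il34 and is needed for microglia to survive. Tmem119 is a membrane protein used to tell microglia from blood-borne macrophages. C1qa, C1qb and C1qc code for the chains of C1q, the first component of the classical complement pathway, which tags synapses for removal. Trem2 is a lipid-sensing receptor that signals through Tyrobp, and Aif1 codes for the calcium-binding protein Iba1.

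The sequence before the start site is shown for Cx3cr1, C1qb and C1qc, since Cx3cr1 and C1qb moved in opposite directions and C1qb and C1qc varied together (both described below with their values). PU.1 and Runx1 are transcription factors that direct the microglial programme. Each sequence is the 250 bases upstream of the RefSeq start site (GRCm38.p6), on the strand of the gene, 5′ to 3′. Capitals mark GAGGAA, the core read by PU.1, and TGTGGT, the core read by Runx factors, on either strand. The windows lie at chr9:120068297-120068546, chr4:136886201-136886450 and chr4:136892915-136893164, all on the minus strand, and GENCODE places the start of Cx3cr1 farther upstream, at 120069879. It places that of C1qc at 136893065, within the window shown, so by GENCODE part of that window, with its TGTGGT, lies inside the gene.
Cx3cr1: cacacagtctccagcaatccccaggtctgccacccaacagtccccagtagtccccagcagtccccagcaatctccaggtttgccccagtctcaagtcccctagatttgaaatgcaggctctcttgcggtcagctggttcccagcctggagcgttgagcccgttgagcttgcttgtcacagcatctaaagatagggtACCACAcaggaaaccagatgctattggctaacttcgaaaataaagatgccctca
C1qb: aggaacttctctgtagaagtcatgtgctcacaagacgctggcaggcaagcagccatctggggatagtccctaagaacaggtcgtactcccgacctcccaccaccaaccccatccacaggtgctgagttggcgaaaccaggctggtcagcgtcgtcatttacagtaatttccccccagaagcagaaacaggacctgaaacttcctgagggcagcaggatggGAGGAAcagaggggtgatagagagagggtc
C1qc: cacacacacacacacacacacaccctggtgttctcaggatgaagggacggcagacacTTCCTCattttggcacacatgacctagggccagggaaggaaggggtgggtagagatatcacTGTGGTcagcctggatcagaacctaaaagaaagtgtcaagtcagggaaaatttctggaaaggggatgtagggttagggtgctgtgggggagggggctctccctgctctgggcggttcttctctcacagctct

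Of the 9 genes, 6 had such a window to search. GAGGAA was found once each in C1qb, C1qc, Trem2 and Aif1 and in neither Cx3cr1 nor P2ry12, compared with 23.253% of the 32851 RefSeq windows of this length. TGTGGT was found once each in Cx3cr1 and C1qc, compared with 14.045% of windows. The IRF core, a pair of GAAA runs with any 2 bases between them, was found only in Aif1 (2.977% of windows), and the TATA box letters TATAAA were found in none of the 6 (12.368%). Both strands were searched, and these are matches of letters, not measured sites.

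The libraries held 25881295 to 63547098 counted reads (median 53384170), and the 9 genes had 255 to 5260 reads in a library (median 1052). Trem2 had the fewest (median 574) and C1qb the most (median 2852). Levels are given as log2 CPM, the log2 of reads scaled to a common library size. Whole-gene Cnih3 was at 4.44 to 5.97 log2 CPM in WT and 4.43 to 5.58 in KO mice, with a KO minus WT difference of -0.34 (SE 0.08, FDR 0.0069). These counts include exons that the KO keeps, so they do not check the genotype of single mice. In bulk tissue, fewer microglia and less RNA per microglia cannot be told apart in a difference of any single microglia gene below.

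None of the 8 listed genes of blood leukocytes passed the filter, and the highest count of any of them in a library was 134 (S100a8). Of 8 genes of border macrophages, 5 passed. All 5 red blood cell genes passed, and their summed level was 158 to 1232 CPM over the 55 mice, beside 187.1 to 326.7 CPM for the 9 genes together. All 25 other listed microglia genes passed.

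Levels were compared between genes only after division by the summed exon length of each gene. The median CPM per kilobase over 55 mice was highest for C1qb at 51.4, followed by C1qa at 23.0 and P2ry12 at 13.8. Aif1 (8.61) and C1qc (8.20) came next, then Cx3cr1 (6.32), Tmem119 (6.25) and Csf1r (5.58), and Trem2 was lowest at 2.32. With the length of the most abundant transcript in place of the summed exons, Aif1 reached 15.7 and C1qc 13.2, beside Cx3cr1 (9.02), Csf1r (6.85) and Tmem119 (6.45). The same division gave 10.9 for Trem2. Its summed transcript estimates came to only 0.087 of its gene counts, compared with a median of 0.396 over genes, so this value was not ranked. The C1q genes sit side by side on the minus strand of chromosome 4 (GRCm38), C1qb at 136880129 to 136886187, C1qc at 136889804 to 136893065 and C1qa at 136895917 to 136898803. No other annotated gene overlaps them.

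**Figure D1:**
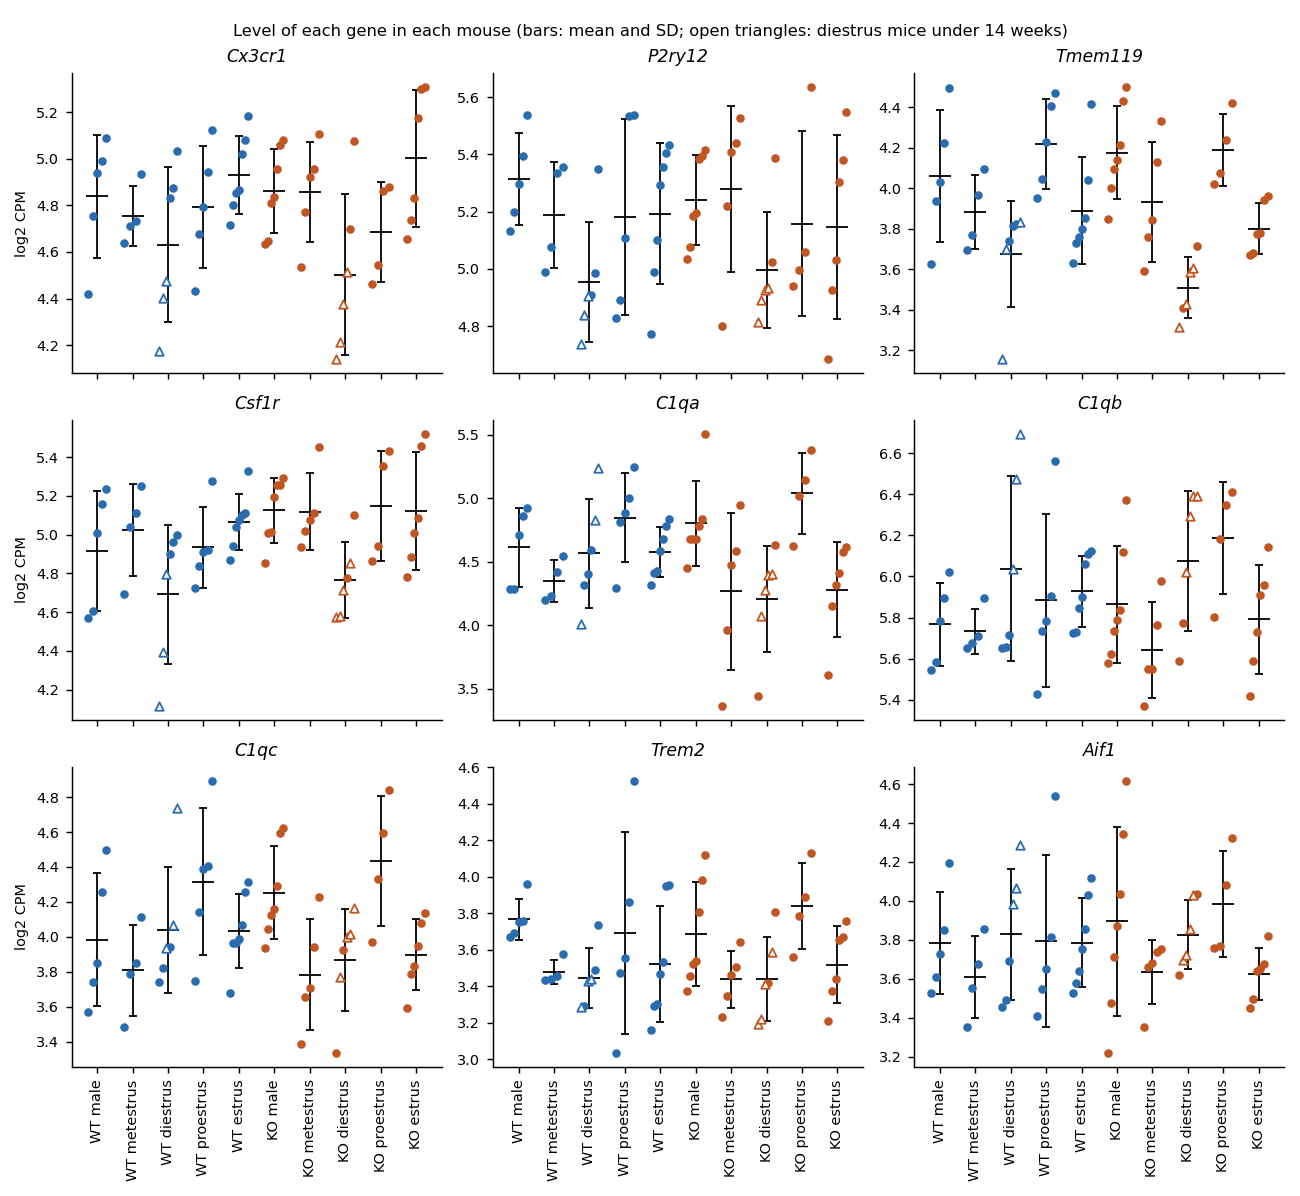
Level of each of the 9 genes (log2 CPM, y axis) in each mouse of the 10 groups (x axis; blue, WT; orange, KO), with the mean and SD of each group. Open triangles are the 7 diestrus mice under 14 weeks, which sit low in Cx3cr1 (4.14 to 4.51) and high in C1qb (6.02 to 6.70).

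In the order of the 10 group means, no pair of neighbours differed by more than the larger of their SDs, for any of the 9 genes. From highest to lowest group mean, the span on the log2 scale ran from 0.36 for P2ry12 to 0.84 for C1qa, with 0.71 for Tmem119 and 0.50 for Cx3cr1. Both WT and KO diestrus had the lowest means of the 10 groups for Cx3cr1, P2ry12, Tmem119 and Csf1r. KO proestrus had the highest mean for the other 5 genes and for Csf1r.

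The first question was whether the genes differ between the sexes. In WT mice none of the 9 differed between all females and males (limma FDR of 1 for each, none at an unadjusted p under 0.05, and none called with edgeR or DESeq2), where 0.0309% of all genes were called at an FDR under 0.05. In KO mice 1 of 9 was called, beside 5.93% of all genes. This was Tmem119, with a female minus male difference of -0.35 (SE 0.09, FDR 0.019), and it was not called with edgeR or DESeq2. Without KO male mouse 2, 5 or 7 it was not called either, with FDR up to 0.277.

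The second question was whether single stages differ from males. In WT diestrus against WT males none of the 9 was called (0.068% of all genes were, and edgeR and DESeq2 called none). At an unadjusted p under 0.05 there were 3 of the 9, beside 2626 of all 16168 genes. The differences were -0.48 (SE 0.17, FDR 0.168) for Tmem119, -0.35 (SE 0.17, FDR 0.291) for P2ry12 and 0.40 (SE 0.18, FDR 0.256) for C1qb. Those of Cx3cr1 (-0.30, FDR 0.328), Trem2 (-0.30, FDR 0.354) and Csf1r (-0.26, FDR 0.427) were also negative. C1qa (-0.03), C1qc (0.09) and Aif1 (0.19) had differences smaller than or close to their SEs (0.23, 0.21 and 0.18). Leaving out WT diestrus mouse 6 gave 3 calls, WT diestrus mouse 1 or 2 or WT male 3 gave 2 each, and WT male 1 or 2 gave 1. In WT metestrus (background 0.0309%), proestrus (0.0309%) and estrus (0.0495%) against males, limma called none of the 9, none had an unadjusted p under 0.05, and edgeR and DESeq2 called none.

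In KO diestrus against KO males, 6 of the 9 genes were called, beside 28.7% of all genes tested. The KO males were 18.29 to 23.71 weeks old and the KO diestrus mice 10.86 to 23.43 (median 12.43). Age is thus largely mixed with stage and sex in this comparison. Tmem119, Cx3cr1, C1qa, Csf1r and P2ry12 fell, where 18% of all genes were lower, and C1qb rose, where 10.7% were higher. Tmem119 had the largest difference. It lay between 3.31 and 3.71 log2 CPM in KO diestrus (median 3.51) and between 3.85 and 4.50 in KO males (median 4.14). The groups did not overlap, and the difference was -0.72 (SE 0.12, FDR 1.97e-05), or 1.64-fold. Here and below, the share of all genes whose levels did not overlap was not counted.

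Cx3cr1 was at 4.14, 4.45 and 5.07 log2 CPM (lowest, median and highest) in KO diestrus and at 4.63, 4.84 and 5.08 in KO males. The groups overlapped through the 2 older diestrus mice, and the difference was -0.51 (SE 0.11, FDR 0.00055). Csf1r fell by 0.43 on the log2 scale (SE 0.12, FDR 0.0044), C1qa by 0.46 (SE 0.17, FDR 0.031) and P2ry12 by 0.34 (SE 0.12, FDR 0.028). C1qb rose by 0.40 (SE 0.12, FDR 0.013), while C1qc (-0.25, FDR 0.179), Trem2 (-0.23, FDR 0.146) and Aif1 (0.07, FDR 0.708) were not called. Of the chains of C1q, C1qa was thus called as lower and C1qb as higher in the same comparison.

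Of these 6 calls, only that of Tmem119 was made by edgeR (-0.68, FDR 0.0011), by the fit without quality weights and by the fit that adjusted for age (-0.45, FDR 0.035), and DESeq2 called Tmem119 and C1qa. Over all genes, edgeR called 813, the fit without quality weights 1057, the fit with age 1025 and DESeq2 1169, beside 4635 in the reported fit. Quality weights, by which noisy libraries count less, were 1.61 to 1.74 in the 4 younger KO diestrus libraries and 0.433 and 0.509 in the 2 older ones. C1qa was not called without KO diestrus mouse 1 or 4 or KO male 5 or 7 (FDR up to 0.086), P2ry12 without KO diestrus mouse 2, 3 or 5 or KO male 5 (FDR up to 0.0788) and C1qb without KO diestrus mouse 5 (FDR 0.0528). Among the other KO stages, Tmem119 was called in estrus against males (-0.41, SE 0.13, FDR 0.035; background 7.66%), again not with edgeR or DESeq2, and not without KO estrus mouse 2 or 3 or KO male 2, 5 or 7 (FDR up to 0.193). None of the 9 was called in KO metestrus (0.359%) or proestrus (0.315%) against males, nor with edgeR or DESeq2. Each held 1 of the 9 at an unadjusted p under 0.05, beside 2056 and 2945 of all 16168 genes.

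**Figure D2:**
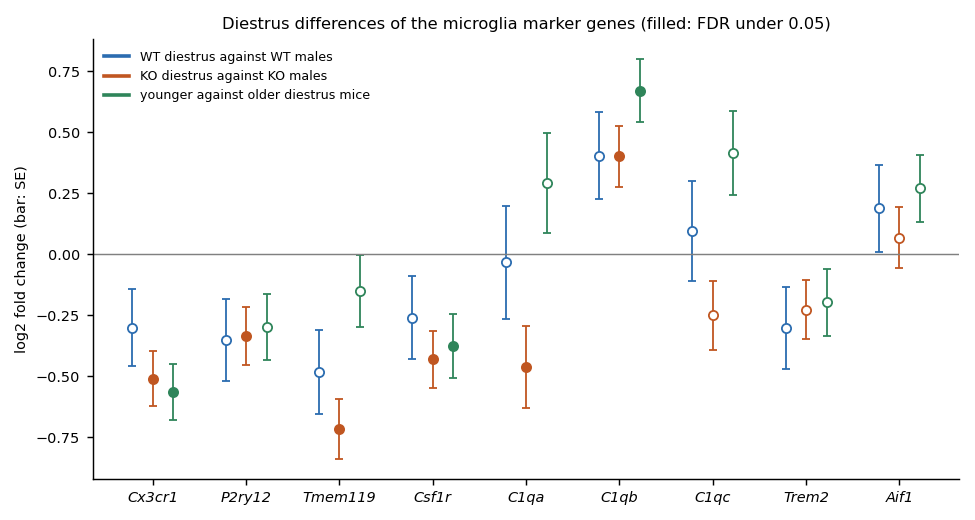
Log2 fold change (y axis; bars, SE) of the 9 genes (x axis) in WT diestrus against WT males (blue), KO diestrus against KO males (orange) and younger against older diestrus mice (green), with filled points at an FDR under 0.05. Tmem119 has its largest difference against KO males (-0.72) and a small one between ages (-0.15), while Cx3cr1 and C1qb differ between ages by -0.57 and 0.67.

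The third question was whether the genes differ between stages. Over both genotypes, the 8 comparisons within a genotype that include diestrus held 21 calls of the 9 genes, or 29.2% of the 72 tests of these genes beside 17.9% of the tests of all genes. The 12 others of single stages or males held 2 calls, or 1.85% beside 1.74%, so the excess of calls in diestrus was shared with genes at large. In WT, Tmem119 was lower in diestrus than in proestrus (-0.65, SE 0.16, FDR 0.0083; background 9.66%). It was at 3.15, 3.78 and 3.83 log2 CPM (lowest, median and highest) in WT diestrus and at 3.95, 4.05, 4.23, 4.41 and 4.47 in WT proestrus. The groups did not overlap. Cx3cr1 (-0.38, SE 0.13, FDR 0.028) and Csf1r (-0.43, SE 0.14, FDR 0.021) were lower in WT diestrus than in WT estrus, beside 22.1% of all genes. With edgeR, DESeq2 or no quality weights none of these 3 calls was made. These fits called 1, 15 and 5 of all genes against proestrus, and 2, 111 and 501 against estrus, in that order. Tmem119 was not called without WT diestrus mouse 3, 4 or 5, all younger (FDR up to 0.158), nor was Csf1r (or without WT estrus mouse 1, FDR up to 0.486) or Cx3cr1 (or without WT estrus mouse 1, 2 or 6, FDR up to 0.642). Without WT diestrus mouse 6 there were 5 calls against estrus, and without mouse 2 there were 5 against proestrus. None of the 9 was called in WT metestrus against diestrus (7.24%), proestrus (0.767%) or estrus (0%), nor in proestrus against estrus (6.82%). EdgeR and DESeq2 called none there either. In that order, limma gave 2, 3, 0 and 1 of the 9 at an unadjusted p under 0.05, beside 4357, 2168, 705 and 3581 of all 16168 genes. Without WT diestrus mouse 1, 2 or 6, metestrus against diestrus held 3 calls. Metestrus against proestrus held 1 without WT metestrus mouse 4, and proestrus against estrus held 1 without WT estrus mouse 7 or WT proestrus mouse 2 or 4.

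In KO diestrus against KO proestrus 5 of the 9 were called, all lower in diestrus, beside 34.3% of all genes called. C1qa had the largest difference (-0.75, SE 0.19, FDR 0.0016), followed by Tmem119 (-0.67, SE 0.14, FDR 0.00022), C1qc (-0.43, SE 0.16, FDR 0.037), Csf1r (-0.42, SE 0.13, FDR 0.012) and Trem2 (-0.38, SE 0.14, FDR 0.029). C1qa was at 4.62, 5.02, 5.14 and 5.38 log2 CPM in the 4 KO proestrus mice and at 3.44, 4.34 and 4.63 (lowest, median and highest) in KO diestrus. The groups overlapped by 1 mouse on each side. EdgeR and DESeq2 also called C1qa, Tmem119 and C1qc. C1qc was not called without KO diestrus mouse 2 or 5 or KO proestrus mouse 1, 3 or 4 (FDR up to 0.138), Trem2 without KO diestrus mouse 2, 3 or 5 or KO proestrus mouse 3 (FDR up to 0.101), and Csf1r without KO proestrus mouse 1 (FDR 0.0851). C1qa was also higher in KO proestrus than in KO estrus (0.81, SE 0.20, FDR 0.042; background 0.507%), a call that was lost with edgeR and DESeq2 and without KO estrus mouse 1, 2, 3 or 4 or KO proestrus mouse 1, 3 or 4 (FDR up to 0.277). Without KO proestrus mouse 2, 2 genes were called.

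Against KO metestrus, 4 of the 9 were called (background 10.4%). Tmem119 (0.51, SE 0.14, FDR 0.011), Cx3cr1 (0.46, SE 0.12, FDR 0.011) and Csf1r (0.44, SE 0.13, FDR 0.02) were higher in metestrus than in diestrus, and C1qb was lower (-0.51, SE 0.14, FDR 0.013). Between KO diestrus and estrus 3 of the 9 were called (30.7%). Cx3cr1 (-0.54, SE 0.12, FDR 0.00087) and Csf1r (-0.34, SE 0.13, FDR 0.04) were lower in diestrus and C1qb was higher (0.50, SE 0.14, FDR 0.0061). With edgeR, DESeq2 or no quality weights, none of these calls against metestrus or estrus was made. These fits called 14, 148 and 254 of all genes against estrus, in that order. Against metestrus, Cx3cr1 was lost without KO diestrus mouse 3 or 5, C1qb without these or KO metestrus mouse 3, Csf1r without KO diestrus mouse 2, 3 or 5 or KO metestrus mouse 1, and Tmem119 without KO metestrus mouse 4. Against estrus, Csf1r was lost without KO diestrus mouse 2, 3 or 5 or KO estrus mouse 2 or 6. None of the 9 was called in KO metestrus against proestrus (4.37%) or estrus (0%), nor with edgeR or DESeq2. At an unadjusted p under 0.05 there were 3 of the 9 against proestrus, beside 3777 of all 16168 genes, and none against estrus. Without KO metestrus mouse 4, metestrus against proestrus held 3 calls, and without KO proestrus mouse 2 it held 1.

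The diestrus mice fell into separate levels by age for Cx3cr1 and C1qb. In the 7 younger diestrus mice Cx3cr1 was at 4.17, 4.40 and 4.47 log2 CPM (WT) and at 4.14, 4.21, 4.38 and 4.51 (KO). In the 5 older ones it was at 4.83, 4.87 and 5.03 (WT) and at 4.70 and 5.07 (KO). All younger mice lay below all older ones, in both genotypes. How many of all genes separate the ages in this way was not counted, and 35.5% of all genes were called between these mice. Of the 43 mice outside diestrus, 3 were below the highest younger diestrus mouse. The younger minus older difference was -0.57 (SE 0.11, FDR 0.00013), or 1.48-fold, and it was -0.57 in WT (FDR 0.0037) and -0.56 in KO (FDR 0.028) alone. The call in KO alone was lost without KO diestrus mouse 1 or 3 (FDR up to 0.268).

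C1qb went the other way. It was at 6.04, 6.47 and 6.70 log2 CPM in the 3 younger WT and at 6.02, 6.30, 6.39 and 6.39 in the 4 younger KO diestrus mice, compared with 5.65, 5.66 and 5.72 in the older WT and 5.59 and 5.77 in the older KO mice. Again the ages did not overlap, and the difference was 0.67 (SE 0.13, FDR 5.37e-05), or 1.59-fold. Subtracted within a mouse, C1qb exceeded Cx3cr1 by 1.51 to 2.30 on the log2 scale (median 2.18) in the younger and by 0.51 to 1.07 (median 0.78) in the older diestrus mice. Only 4 of the 48 other mice reached the lowest younger diestrus value.

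**Figure D3:**
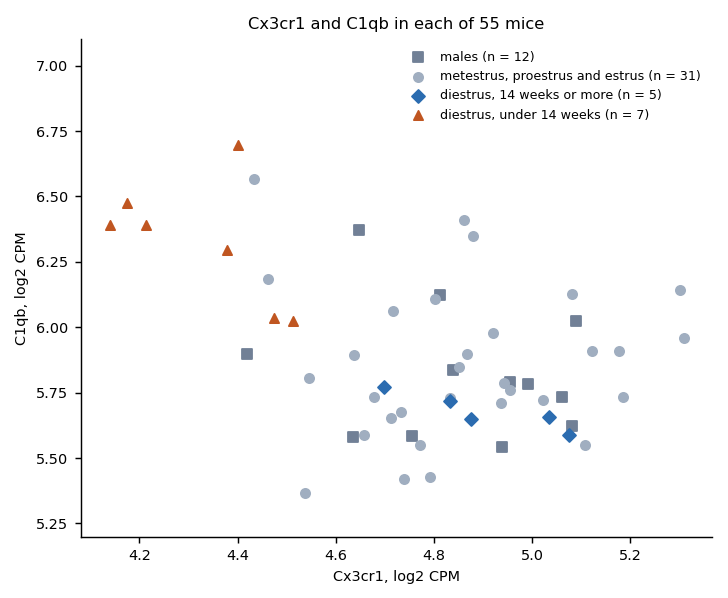
Cx3cr1 (x axis) against C1qb (y axis), both in log2 CPM, with 1 point for each of 55 mice. The 7 diestrus mice under 14 weeks (triangles) lie at 4.14 to 4.51 for Cx3cr1 and 6.02 to 6.70 for C1qb, apart from the 5 older diestrus mice (diamonds) at 4.70 to 5.07 and 5.59 to 5.77.

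In all, 3 of the 9 genes were called between younger and older diestrus mice, beside 35.5% of all genes (20.1% lower and 15.5% higher in the younger mice), so the share called was close to the background. The third was Csf1r (-0.38, SE 0.13, FDR 0.022), whose levels overlapped (4.11 to 4.85 in younger and 4.77 to 5.10 in older mice). P2ry12 (-0.30, FDR 0.077), Tmem119 (-0.15, FDR 0.437), C1qa (0.29, FDR 0.272), C1qc (0.41, FDR 0.053), Trem2 (-0.20, FDR 0.265) and Aif1 (0.27, FDR 0.118) were not called. In WT alone Aif1 was called as well (0.57, SE 0.18, FDR 0.014; 4 of 9 called, background 30.9%), and in KO alone only Cx3cr1 was (1 of 9, background 8.67%). EdgeR, DESeq2 and the fit without quality weights all called Cx3cr1, Csf1r and C1qb. The call of Csf1r was lost without WT diestrus mouse 3 or KO diestrus mouse 6 (FDR up to 0.114). In WT alone Csf1r was lost without WT diestrus mouse 1, 2, 3, 5 or 6 and Aif1 without mouse 2 or 4. C1qc was called without WT diestrus mouse 1, 3 or 5 or KO diestrus mouse 2 or 6, and P2ry12 without KO diestrus mouse 6.

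Tmem119, which overlapped between the ages like each of the 9 except Cx3cr1 and C1qb, differed from KO males by a like amount in both. With only the younger diestrus mice its difference from KO males was -0.71 (FDR 4.6e-05), and with only the older ones it was -0.67 (FDR 0.255, 2 mice). For Cx3cr1 the same values were -0.56 (FDR 7.81e-05) and -0.03 (FDR 0.995), and for C1qb they were 0.48 (FDR 0.0012) and -0.13 (FDR 0.94). With only the older diestrus mice none of the 9 genes was called by limma in any of the 8 comparisons with diestrus, where 0% to 0.0433% of all genes were called, so these fits say little of the 9. With only the younger ones WT diestrus held 3 calls against males (26.2% of all genes), 5 against estrus (46.9%), 5 against proestrus (39.3%) and 5 against metestrus (38.6%).

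Age alone, as weeks over all 55 mice with the group means in the model, gave a call for none of the 9 genes (smallest FDR 0.292; background 0.0804%; only limma was run). At an unadjusted p under 0.05 there were 4 of the 9, beside 1325 of all 16168 genes. Outside diestrus, Cx3cr1 was at 4.46 to 5.30 log2 CPM (median 4.73) in the 9 females under 14 weeks and at 4.43 to 5.31 (median 4.86) in the 22 older ones, and C1qb was at 5.37 to 6.35 (median 5.73) and 5.42 to 6.56 (median 5.87). The 1 male under 14 weeks had the lowest Cx3cr1 of the 12 males, at 4.42. The younger diestrus mice also carry the numbers 532 to 645 in the labels, a range that holds no other mouse, so age within diestrus and this series of numbers cannot be told apart.

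Transcript length moved with the same comparison. The median younger minus older difference over all genes was 0.279 for genes under 1 kb of exon and fell to -0.147 for those over 6 kb. C1qb, with 1088 bases of exon, was 0.67 higher where genes of 1 to 2 kb had a median of 0.174 and 24.1% of them were called higher. Cx3cr1, with 4505 bases, was 0.57 lower where genes of 4 to 6 kb had a median of -0.0484 and 20.8% were called lower. With the length trend of each library removed, Cx3cr1 (-0.51, FDR 0.00032) and C1qb (0.50, FDR 0.0014) were still called, and Csf1r, with 5774 bases, was not (-0.27, FDR 0.095). Between the same length classes, medians went from 0.109 to -0.15 in WT diestrus against estrus and from 0.211 to -0.144 in KO. In KO diestrus they went from 0.148 to -0.00341 against males and from 0.0258 to -0.0482 against proestrus. In KO metestrus against diestrus they went from -0.157 to 0.0615.

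**Figure D4:**
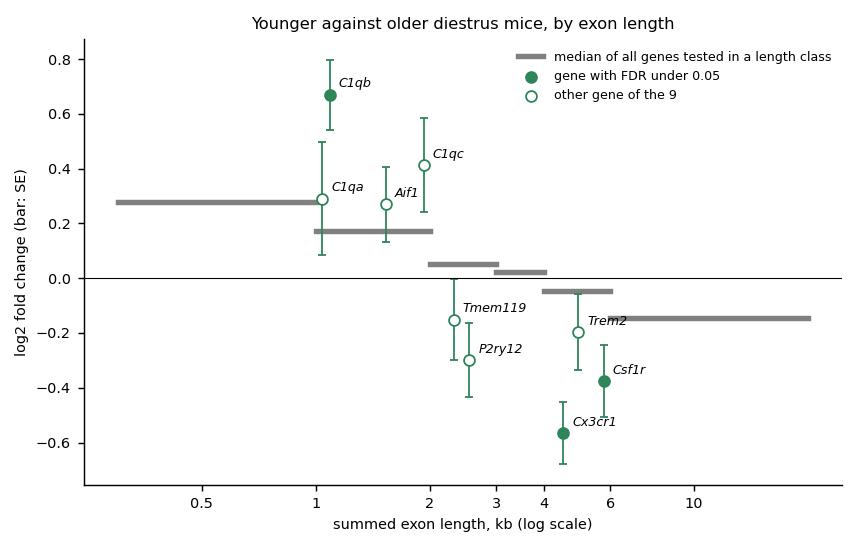
Younger minus older diestrus log2 fold change (y axis; bars, SE) of the 9 genes against their summed exon length in kb (x axis, log scale), with the median of all genes in each length class as grey lines. The grey lines fall from 0.279 to -0.147, with C1qb at 0.67 and Cx3cr1 at -0.57. In the class of C1qb 24.1% of genes were called higher, and in that of Cx3cr1 20.8% were called lower.

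The fourth question was the effect of Cnih3. None of the 9 genes was called between KO and WT mice in males (background 0.00619%), metestrus (0.0247%), diestrus (0%), proestrus (0.315%) or estrus (0.179%), or over all groups (3.4%). The smallest FDR was 0.332. In proestrus and in estrus 1 of the 9 each had an unadjusted p under 0.05, beside 2214 and 1896 of all 16168 genes. The differences ran from -0.39 to 0.34 on the log2 scale. Without WT diestrus mouse 3, 4 or 5, the comparison in diestrus held 1, 2 and 1 calls. None of the 4 limma tests of whether the diestrus difference itself changed with genotype was passed by any of the 9. Here the smallest FDR was 0.396, with a background of 0% in each and none at an unadjusted p under 0.05. The calls in KO and the fewer calls in WT were thus not shown to differ. EdgeR and DESeq2 called none in these comparisons.

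The 9 genes did not vary as one among mice. With group means removed, 16 of the 36 pairs were positively and 3 negatively correlated (Pearson) over 55 mice at a Benjamini-Hochberg adjusted permutation p under 0.05 (two-sided, 100000 resamples). All 3 pairs of C1q genes were positively correlated. C1qb and C1qc had a Pearson r of 0.758 (Spearman rho 0.719, adjusted p = 5.14e-05 and 7.2e-05 by permutation) and an r of 0.693 without the 2 mice farthest from the C1qb median. C1qa and C1qc had an r of 0.757 (rho 0.743, adjusted p = 5.14e-05 and 7.2e-05 by permutation; 0.728 without 2 mice), and C1qa and C1qb had an r of 0.615 (rho 0.562, adjusted p = 5.14e-05 and 7.2e-05 by permutation; 0.613 without 2 mice). Unadjusted, each of these values had the smallest p that 100000 resamples can give, 1e-05.

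Cx3cr1 went with Csf1r and P2ry12 and not with Trem2 (r = 0.00888, rho = 0.0631, adjusted permutation p = 0.949 and 0.665, unadjusted 0.949 and 0.647, 0.011 without 2 mice). It had an r of 0.687 with Csf1r (rho 0.706; 0.718 without 2 mice) and 0.667 with P2ry12 (rho 0.672; 0.662 without 2 mice), each with an adjusted permutation p of 5.14e-05 for r and 7.2e-05 for rho and an unadjusted p of 1e-05. Cx3cr1 and Aif1 were inversely related (r = -0.525, rho = -0.525, adjusted permutation p = 0.00018 and 0.0004, unadjusted 6e-05 and 0.0001), and r was -0.525 without 2 mice. For Cx3cr1 and C1qb r was -0.333 (adjusted permutation p = 0.0247, unadjusted 0.013) but rho was -0.255 (adjusted 0.0944, unadjusted 0.0603), and r was -0.224 without the 2 farthest mice, so this relation rests partly on them. All 20 pairs that cross from Cx3cr1, P2ry12, Csf1r and Tmem119 to the other 5 genes had r between -0.525 and 0.532, with a median of -0.0972. Diestrus groups hold both ages, so these values include the split of the diestrus mice. The 2 sets also divide by transcript length. The most abundant transcript has 2101 to 4701 bases in Cx3cr1, P2ry12, Csf1r and Tmem119 and 842 to 1203 in the other 5 genes. By summed exons, Trem2 (4946 bases) is instead among the long genes. No length trend was removed before these correlations, and its part in them was not tested.

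**Figure D5:**
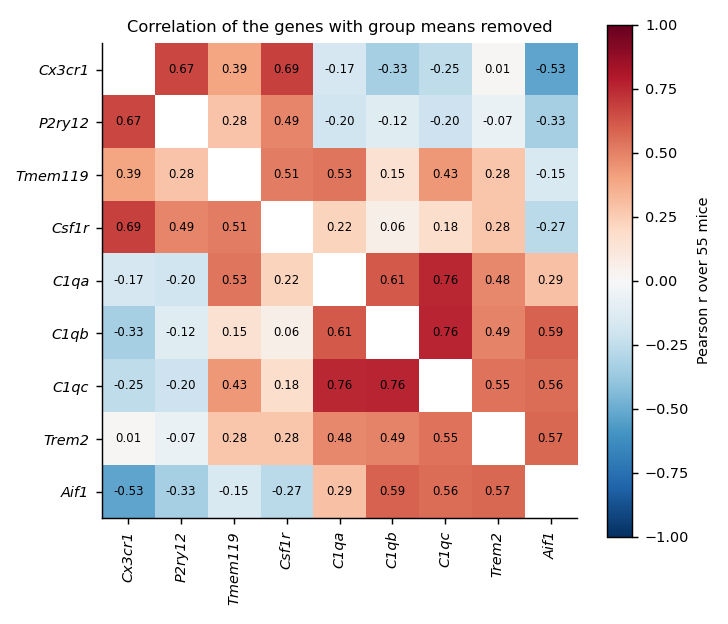
Pearson r between each pair of the 9 genes over 55 mice after removal of group means (color scale from -1 to 1). The block of C1qa, C1qb, C1qc, Trem2 and Aif1 is positive throughout (0.291 to 0.758), as is that of Cx3cr1, P2ry12, Tmem119 and Csf1r (0.284 to 0.687), and the rectangle between them runs from -0.525 to 0.532. The most abundant transcripts have 842 to 1203 bases in the former block and 2101 to 4701 in the latter. No length trend was removed.

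The 10 genes most like the mean of the 9 over mice with group means removed were Emc7 (r = 0.755), Ctss (0.751), Bsg (0.717), Cd81 (0.712), Lcat, mt-Nd4, mt-Nd6, mt-Cytb, Gm50174 and Jagn1 (0.662 to 0.692), as a description over 55 mice that share their libraries. Ctss, a lysosomal protease of microglia, is the one of the 10 that is also on the list of other microglia genes. Without removal of the group means, 5 of these 10 were again among the 10 most alike. The mean does not stand equally for each of the 9. With group means removed, r with the mean of the other 8 was 0.0232 for Cx3cr1, 0.0448 for P2ry12 and 0.217 for Aif1. For the rest it was 0.426 (Csf1r) to 0.701 (C1qc).

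Cx3cl1 and Csf1, ligands of Cx3cr1 and Csf1r, were lower in the same comparisons, while Il34, the other ligand of Csf1r, was tested and not called. Of 18 listed ligands and partners, 14 were tested, and in KO diestrus against KO males 2 were higher and 6 lower, beside 10.7% and 18% of all genes, and 6 were not called (median -0.21, all genes -0.0023). Cx3cl1, the ligand of Cx3cr1, was lower by 0.81 on the log2 scale (SE 0.10, FDR 8.41e-08) and Csf1, a ligand of Csf1r, by 1.07 (SE 0.18, FDR 1.83e-05). P2ry13, an ADP receptor related to P2ry12, was lower by 0.74 (FDR 5.98e-05), and Tyrobp, the signalling partner of Trem2, was higher by 0.63 (FDR 0.002). Between younger and older diestrus mice 1 was higher and 7 were lower, beside 15.5% and 20.1% of all genes, and 6 were not called. Cx3cl1 was lower by 0.71 (FDR 4.19e-08), Csf1 by 1.23 (FDR 3.75e-07), Sirpa by 0.56 and Cd47 by 1.03. The summed level of the list did not overlap, at 404.7 to 523.5 CPM in the younger and 627.8 to 789.9 CPM in the older mice.

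Of the 25 further microglia genes, which also include P2ry13 and Tyrobp, 2 were higher and 9 lower in KO diestrus than in KO males (median -0.15), beside 10.7% and 18% of all genes. Selplg (-0.92, FDR 9.85e-07), P2ry13 and Ctss (-0.53, FDR 0.0011) were among the lower ones. Between younger and older diestrus mice 3 were higher and 9 lower, beside 15.5% and 20.1% of all genes (median -0.35, all genes -0.0059). Tyrobp (0.88, FDR 3.06e-05) and Fcer1g (0.54, FDR 0.0025), which code for small signalling adaptors, were higher, and P2ry13 (-0.60, FDR 0.0013) and Gpr34 (-0.56, FDR 0.0021) were lower. The summed level of the list was 260 to 320.7 CPM in the younger and 318.5 to 331.5 CPM in the older mice.

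Among 17 listed genes of microglial activation, 10 were tested, and in each comparison 5 were lower and none higher, beside 18% of all genes lower against KO males and 20.1% between ages. Against KO males these were Ctsb (-0.56, FDR 2.73e-05), Cd9 (-0.70, FDR 3.07e-05), Lpl (-0.69, FDR 5.11e-05) and Ctsd (-0.49, FDR 9.81e-05) among the 5. Cathepsins and lipid genes are also made by neurons and other glia, so these bulk values do not place them in microglia. Of 10 other complement genes 8 were tested, of which 1 was lower against KO males and 3 between ages, beside 18% and 20.1% of all genes, and none was higher. C1ra, a protease that C1q activates, was lower in KO diestrus than in KO males (-1.38, FDR 0.00081), and C4b (-0.78, FDR 0.0016), C5ar1 (-1.01, FDR 0.029) and C1ra (-0.90, FDR 0.039) were lower in the younger diestrus mice, in which C1qb was higher.

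Markers of other cells were read in the same comparisons. Of all genes, 18% were lower and 10.7% higher against KO males, and 20.1% were lower and 15.5% higher between ages. Of 14 oligodendrocyte genes, 12 were lower in KO diestrus than in KO males (median -0.92) and 9 were lower in younger than in older diestrus mice (median -0.77), with summed levels of 3173 to 4070 CPM in the younger and 3482 to 5691 CPM in the older mice. Of 9 astrocyte genes, 4 were higher against KO males and 3 between ages, with sums of 3748 to 4102 CPM in the younger and 2478 to 3335 CPM in the older mice. For 8 neuronal genes, of which 3 were higher and 3 lower between ages, the sums were 10160 to 11800 and 8815 to 10390 CPM. For 9 choroid plexus genes (1 higher) they were 135.7 to 1152 and 32.5 to 176.9 CPM. For 5 red blood cell genes they were 158 to 252.7 and 183.4 to 398.1 CPM, and for 7 endothelial genes 31.2 to 52.5 and 31.3 to 55.7 CPM, with none called between ages and 1 endothelial gene (Ly6c1, 0.70, FDR 0.0038) higher against KO males. Border macrophage genes summed to 4.55 to 6.92 and 5.33 to 13.3 CPM, with F13a1 (-1.74, FDR 0.00048) and Mrc1 (-1.11, FDR 0.038) lower in the younger mice, and the leukocyte genes summed to 1.05 to 2.27 and 1.07 to 3.35 CPM. The part of these cells in the values of the 9 genes was not tested.

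Transcript estimates gave a second view of which forms were read. C1qa and C1qb each had 1 transcript. The most abundant coding transcript held a median of 64.2% of the estimated counts of Cx3cr1 (0 to 81.5% over mice), and the next held 33.8% (13.4 to 100%). For P2ry12 the most abundant held 77.7% (28.5 to 91.7%). The leading form of both genes thus varied between mice. For P2ry12, Csf1r and Aif1, 1 annotated transcript each was not used here. For Trem2 the summed transcript estimates came to 0.087 of the gene counts, compared with a median of 0.396 over genes, and 1 annotated Trem2 transcript was not used here, so its shares were not read further. In GRCm38, Cx3cr1 lies on chromosome 9 from 119901616 to 120069879 (minus strand) and 78 of its exon bases overlap other genes, and P2ry12 lies on chromosome 3 from 59216272 to 59262871 (minus strand), within Med12l on the opposite strand, with 9 such bases. Tmem119 lies on chromosome 5 from 113793729 to 113800516 (minus strand), Trem2 on chromosome 17 from 48346401 to 48354147 (plus strand) and Aif1 on the same chromosome from 35170991 to 35176068 (minus strand), with no overlapping gene. Exons of Csf1r (chromosome 18, 61100598 to 61132149, plus strand) overlap those of Mir6983 and of Hmgxb3, which lies on the opposite strand, over 873 bases. The library kit does not mark strand, so reads there cannot be assigned to one gene.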

How the data were processed

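The authors aligned reads to GRCm38 with STAR 2.7.9a and counted reads per Ensembl gene with featureCounts 2.0.3. The deposited gene counts were the source of every level and test. The deposited log2 CPM table of the authors was used only as a check (largest difference 5e-14 over 16164 genes). Estimated transcript counts (expected counts, Salmon 1.5.2) were deposited too and used only for transcript shares. A single per-sample column (1) had no matching mouse among the samples and was left out, and the authors' CPM tables were not needed. RNA came from the supernatant of a detergent lysate, and libraries were made with a polyA kit that does not mark strand. Lines that repeat a gene (287) were dropped.

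Analyses used R 4.3.3. The filter asked for a CPM above 1 in 10 or more libraries, and ribosomal RNA genes were removed. Counts were normalized by TMM (edgeR 4.0.16) and fitted with voomWithQualityWeights in limma 3.58.1 with 1 mean per group, all 55 mice in 1 fit, contrasts of means and Benjamini-Hochberg adjustment over all genes within a comparison, at an FDR of 0.05. For younger against older diestrus mice the diestrus groups were split at 14 weeks. EdgeR's quasi-likelihood test, DESeq2 1.42.0, an unweighted fit, RLE size factors, no filter, age as a covariate, diestrus mice of 1 age class and leaving out each mouse were alternatives. Exon lengths and positions came from GENCODE M21 and upstream sequences from RefSeq (GRCm38.p6; 6 of the 9 genes shown or searched). The fits were checked on simulated counts. Named were all 9 genes, the 10 genes most like their mean, and at most 4 called genes a list by smallest FDR, of which 1 is not reported here; Ly6c1 is the single endothelial gene called, and the subtraction of Cx3cr1 from C1qb and the removal of each library's trend on gene length were chosen after values were seen. Il34 was named as well, as a listed ligand of Csf1r that was not called. The 9 genes, the lists and the age split were chosen with earlier results of these data known. The labels do not number mice within groups, so mice were numbered in order of listing, and p-values measure the spread between mice.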

Additional observations from a re-analysis of the deposited data

Results flagged for a closer look

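Of 90 sets of values (9 genes in 10 groups), 7 had a mouse far from the rest of its group by Dixon's test, where chance gives about 1 in 20. In log2 CPM, these were Aif1 at 3.35 in KO metestrus mouse 1 (nearest 3.66), C1qa at 5.51 in KO male mouse 6 (nearest 4.84), C1qc at 4.74 in WT diestrus mouse 4 (nearest 4.07), P2ry12 at 5.39 in KO diestrus mouse 1 (nearest 5.02) and at 5.64 in KO proestrus mouse 3 (nearest 5.06), Tmem119 at 3.15 in WT diestrus mouse 3 (nearest 3.70) and Trem2 at 3.58 in WT metestrus mouse 2 (nearest 3.45). WT diestrus mice 3 and 4 are younger and KO diestrus mouse 1 is older than 14 weeks. None of the 4 tests of a genotype difference in the diestrus contrasts passed the threshold for any of the 9 genes.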

How the results depend on the processing

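No paired analysis was possible because replicate numbers were given in order of listing and pair no mice between groups. Of 274 counts of the 9 genes called under another setting (35 comparisons), 214 stayed within 1.5 times the reported count. Counts that moved were as follows, with the cause not tested. With edgeR and with no quality weights, KO diestrus held 1 call against males, 3 against proestrus and 0 against estrus, and KO metestrus against diestrus, KO estrus against males, KO females against males, KO proestrus against estrus and WT diestrus against proestrus or estrus held 0 each. DESeq2 gave the same counts but 2 for KO diestrus against males. Fewer of all genes were called there as well. For KO diestrus against males, proestrus and estrus, the reported fit called 4635, 5550 and 4962 of all genes. EdgeR called 813, 1353 and 14, the fit without quality weights 1057, 1627 and 254, and DESeq2 1169, 1799 and 148. Without the filter the counts were 3 for KO diestrus against males, 2 against proestrus and 1 against estrus, 2 for KO younger against older, 1 for WT diestrus against estrus, and 0 for KO estrus or females against males, KO metestrus against diestrus, KO proestrus against estrus and WT diestrus against proestrus. With age as a covariate they were 1 for KO diestrus against males and 3 against proestrus, 1 for KO metestrus against proestrus, 2 for KO proestrus against estrus, 1 for WT proestrus against estrus, and 0 for KO estrus or females against males, KO metestrus against diestrus and WT diestrus against estrus. For KO diestrus against males, proestrus and estrus, 2652, 3605 and 2803 of all genes were called without the filter. With age as a covariate these were 1025, 4677 and 2830. With only the older diestrus mice (fewer samples), KO diestrus against males, metestrus, proestrus or estrus and WT diestrus against proestrus or estrus held 0, and with only the younger ones WT diestrus held 3 against males and 5 against each other stage. With the length trend removed, KO estrus against males and KO proestrus against estrus held 0 and WT younger against older 2. With RLE size factors KO younger against older held 2.

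Leaving out 1 mouse at a time, KO diestrus held 4 to 6 calls against males, 3 to 6 against proestrus, 2 to 3 against estrus and 0 to 2 against WT diestrus. KO metestrus held 1 to 5 against diestrus and 0 to 3 against proestrus. KO estrus against males and KO proestrus against estrus held 0 to 2, and KO females against males 0 to 1. WT diestrus held 0 to 3 against males or metestrus, 0 to 5 against proestrus or estrus. WT metestrus against proestrus and WT proestrus against estrus held 0 to 1. Younger against older held 3 to 4 (2 to 4 in WT, 0 to 2 in KO).

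Directions turned for the following log2 differences. Aif1 in KO diestrus against males was -0.1176 with DESeq2, -0.1293 with edgeR and -0.04605 without quality weights. C1qa in WT diestrus against males was 0.1589 with age as a covariate and 0.1028 with only younger mice. With only older diestrus mice, C1qb was -0.134 in KO and -0.06165 in WT diestrus against males, -0.02152 in KO diestrus against estrus and 0.01495 in KO metestrus against diestrus. Cx3cr1 was then -0.02875 in KO metestrus against diestrus, and in WT diestrus against males Cx3cr1 was 0.06186, Csf1r 0.05564, C1qc -0.2059 and Aif1 -0.1713. Leaving out 1 mouse, Aif1 ran from -0.0908 to 0.1476 in KO diestrus against males. In WT diestrus against males Aif1 ran from -0.04273 to 0.3228, C1qa from -0.1726 to 0.07963, C1qc from -0.1867 to 0.3446 and Csf1r from -0.4736 to 0.01468. C1qa ran from -0.008917 to 0.5666 in younger against older diestrus mice.

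The length of the most abundant transcript moved the median level per kilobase of 6 of the 9 genes by more than 1 SD between mice. No label gives a preparation batch, and the comparison of ages in KO rests on 2 older mice. Depth was highest for C1qb and lowest for Trem2 among the 9 genes.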
